A study of Mus musculus with 36 samples.

Results

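Tfeb and its relatives Tfe3, Mitf and Tfec make up the MiT/TFE family of transcription factors. The 4 genes were chosen as members of this family, with earlier results of these data known. All 4 are among the 12795 genes of the count table. They were followed through 36 polyA RNA-seq libraries of macrophages that had been flow-sorted from mouse hearts. The mice were fed tamoxifen for 7 days, underwent 90 min of cardiac ischemia and were studied 7 days after it. Every animal is labelled as carrying Cx3cr1-er-Cre, a tamoxifen-dependent Cre recombinase under Cx3cr1, and the reporter Td-Tomato-LoxSTOP. TFEB-TG animals carried in addition TFEB-LoxP-STOP, a TFEB cassette behind a stop sequence that Cre removes, and TFEB-wt animals did not. Each genotype gave a fraction with (CCR2pos) and without (CCR2neg) the monocyte chemokine receptor CCR2, and each fraction was divided further into Cre-neg cells and cells with Cre; the latter are labelled mac-TFEB for the TFEB-TG genotype and CX3CR1-Cre for TFEB-wt. The 4 TFEB-TG groups held 4 libraries each and the 4 TFEB-wt groups 5 each. The labels give neither the age of the animals, what set Cre-neg cells apart, nor the number of transgenic lines.

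MiT/TFE proteins bind DNA as dimers through a basic helix-loop-helix leucine zipper, and recognise E-boxes that are printed with the promoters. Nutrient-replete lysosomes recruit them through RAG GTPases, where mTORC1 phosphorylates them and 14-3-3 proteins then hold them in the cytoplasm; starvation or lysosomal stress lets them enter the nucleus and raise lysosome and autophagy genes that carry CLEAR elements. TFEB and TFE3 overlap in function in macrophages, MITF is best known from melanocytes, mast cells and osteoclasts, and TFEC is expressed mainly in the myeloid lineage.

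Total counts were 13797484 to 32645783 per library (median 19676039). All 8 macrophage markers examined were present and summed to 26407 to 43055 CPM (counts scaled to the library's total) in a library. Melanocytes, which depend on MITF, were represented in the table by 1 of 6 markers, Pmel, at no more than 1.34 CPM. Of 10 mast cell markers 4 were listed, with a sum of 62.1 CPM in TFEB-wt CCR2neg CX3CR1-Cre library 4 and at most 15.4 CPM elsewhere. Fibroblast markers summed to at most 625 CPM in a library, endothelial markers to 370 CPM and B cell markers to 199 CPM. The 8 T and NK cell markers summed to 125 to 191 CPM in CCR2neg mac-TFEB and 46.0 to 79.6 CPM in CCR2neg CX3CR1-Cre libraries. Between these groups edgeR called 2 of the 8 higher (adjusted p under 0.05), and 0.922% of all genes. Most of the sum was Cd4 and Il7r, with medians of 36.3 and 24.7 CPM over all libraries. Both were highest in CCR2neg mac-TFEB library 3 (94.8 and 91.4 CPM). Cd3e, Cd3d, Cd3g, Cd8a, Nkg7 and Gzma had medians of at most 1.30 CPM. The Cd3 genes and Cd8a were highest in CCR2pos mac-TFEB library 2. The part of these cell types in the members' differences was not tested. Ccr2 averaged 647 to 853 CPM in the CCR2pos groups and 48.1 to 76.1 CPM in the CCR2neg groups. The labels do not say that libraries came from separate animals, so p-values measure the spread between libraries, which may be technical in part.

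On GRCm38 Tfeb (ENSMUSG00000023990) lies on the plus strand of chromosome 17 from 47737030 to 47792419. Tfe3 (ENSMUSG00000000134) lies on the plus strand of the X chromosome from 7762560 to 7775202. Mitf (ENSMUSG00000035158) and Tfec (ENSMUSG00000029553) are both on chromosome 6, Mitf on the plus strand from 97807052 to 98021349 and Tfec on the minus strand from 16833373 to 16898441. No other annotated gene shares an exonic base with any of the 4. Reads counted for Tfeb could come from the chromosomal gene or from the cassette, and the counts do not separate these sources.

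Tfeb was scarce in cells without the cassette. Its mean level in the TFEB-wt groups was 8.07 ± 1.01 CPM in CCR2neg CX3CR1-Cre, 6.93 ± 2.96 in CCR2neg Cre-neg, 6.20 ± 2.85 in CCR2pos CX3CR1-Cre and 5.92 ± 0.71 in CCR2pos Cre-neg (SD, n = 5 each). Single TFEB-wt libraries lay between 4.18 and 11.9 CPM, and the ranges of neighbouring groups overlapped. In TFEB-TG cells labelled Cre-neg it was already higher. The 4 CCR2neg Cre-neg libraries had 40.4, 18.4, 17.4 and 12.7 CPM (22.2 ± 12.3, SD, n = 4), and the CCR2pos Cre-neg libraries 51.3, 48.8, 34.2 and 18.9 CPM (38.3 ± 14.9, SD, n = 4), in the order of label numbers 1 to 4. The lowest of these 8 libraries exceeded the highest of the 20 TFEB-wt libraries; between the Cre-neg groups of the genotypes 2.2% (CCR2neg) and 1.88% (CCR2pos) of all genes were free of overlap. The mac-TFEB libraries had the most Tfeb. In CCR2neg they reached 356.6, 252.9, 100.4 and 67.5 CPM (194 ± 135, SD, n = 4), and in CCR2pos 223.6, 279.9, 60.1 and 66.8 CPM (158 ± 111, SD, n = 4). The order was thus mac-TFEB, TFEB-TG Cre-neg, TFEB-wt, and the 2 fractions overlapped at each of these steps. No overlap of mac-TFEB with TFEB-TG Cre-neg libraries was found for 3.52% (CCR2neg) and 1.99% (CCR2pos) of all genes, Tfeb among them.

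**Figure D1:**
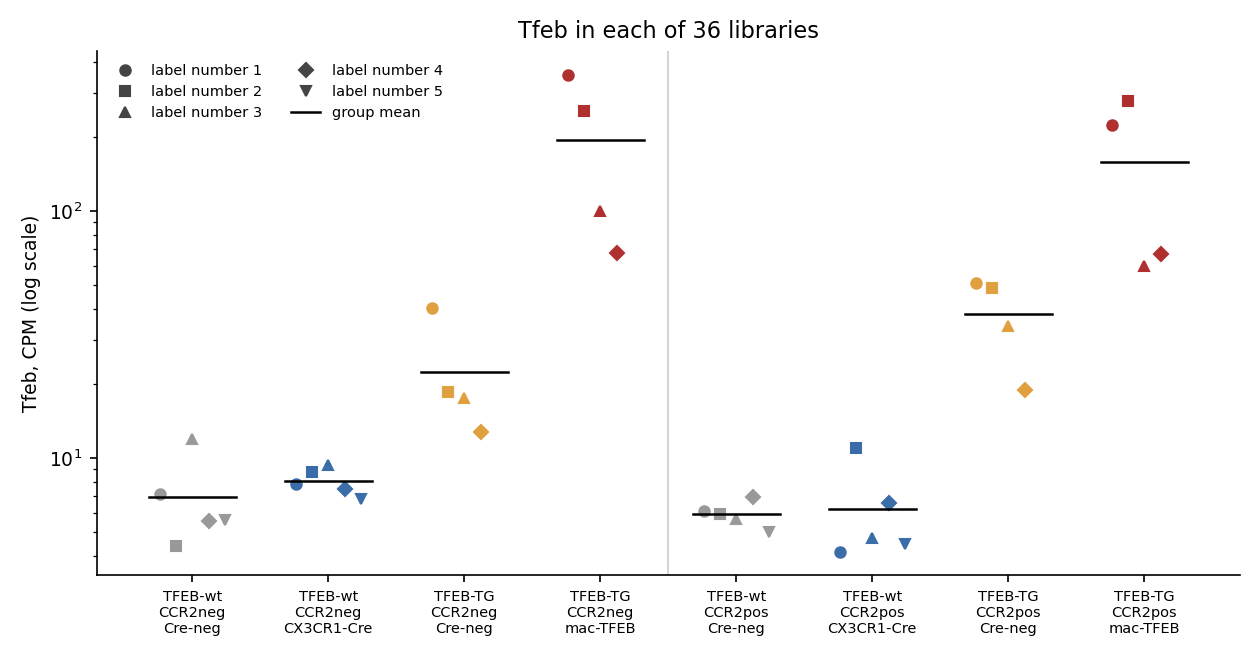
Tfeb in CPM on a log axis for each of 36 libraries, by group; symbols are the label numbers and horizontal lines the group means. The mac-TFEB libraries lie between 60.1 and 357 CPM, the TFEB-TG Cre-neg libraries between 12.7 and 51.3 CPM and the TFEB-wt libraries between 4.18 and 11.9 CPM.

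The comparison of mac-TFEB with CX3CR1-Cre asks which mRNAs respond to TFEB overexpression, and Tfeb itself checks the labels. In CCR2neg cells Tfeb was higher by 4.57 ± 0.46 on the log2 scale (SE; edgeR's quasi-likelihood test, adjusted p = 1.06e-07), and 1.38% of all genes were called in either direction. In CCR2pos cells the difference was 4.58 ± 0.46 (edgeR, adjusted p = 1.16e-07), where 0.0391% of genes were called. The libraries did not overlap in either fraction, as for 6.03% and 2.56% of genes. The other 3 members were not called in either fraction. The Tfeb step of CCR2pos minus that of CCR2neg cells was 0.02 (95% interval -1.18 to 1.21; edgeR, adjusted p = 0.9998). With the label of same-numbered libraries as a block it was 0.04 (-0.67 to 0.75, edgeR, adjusted p = 0.986). No gene was called in that difference by edgeR, where 505 had an unadjusted p under 0.05.

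Tfeb differed between the genotypes in Cre-neg cells as well. TFEB-TG Cre-neg exceeded TFEB-wt Cre-neg by 2.68 ± 0.43 (log2, SE) in CCR2pos cells (edgeR, adjusted p = 0.00249; 0.0313% of genes called). The call was lost with the label as a random effect, at 2.57 (limma-voom, adjusted p = 0.0743). In CCR2neg cells the difference was 1.65 ± 0.43 and missed the threshold (edgeR, adjusted p = 0.0697; 0.406% of genes called), although the libraries did not overlap. DESeq2 called it, at 1.67 (adjusted p = 0.0128). With no cassette, Cre status gave no call for Tfeb: CX3CR1-Cre minus Cre-neg was 0.24 (95% interval -0.60 to 1.07) in CCR2neg and 0.12 (-0.73 to 0.97) in CCR2pos cells.

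Within TFEB-TG, mac-TFEB and Cre-neg libraries of one label number can be set against each other. The ratio of Tfeb was 8.83, 13.7, 5.75 and 5.30 for labels 1 to 4 in CCR2neg cells. For CCR2pos cells it was 4.36, 5.74, 1.76 and 3.53. Tfeb was thus higher in the mac-TFEB library of all 4 labels in both fractions. The fitted difference was 3.15 ± 0.47 (log2, SE) in CCR2neg cells (edgeR, adjusted p = 4.57e-04; 0.156% of genes called) and 2.96 ± 0.26 with the label as a block (adjusted p = 6.68e-08). Fitted to the 8 libraries alone it was 3.14 and not called (edgeR, adjusted p = 0.204). In CCR2pos cells it was 2.03 ± 0.44 and not called (edgeR, adjusted p = 0.215; 0.0156% of genes called), but 1.85 ± 0.25 with the block, which was called (adjusted p = 3.22e-04; 0.203% of genes).

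The mac-TFEB step of Tfeb was also set against the step that the genotype gave without Cre. In CCR2neg cells this difference of differences was 2.91 ± 0.61 (log2, SE; edgeR, adjusted p = 0.421). No gene was called there, 496 of 12795 had an unadjusted p under 0.05 and DESeq2 called 2. With the label as a block Tfeb was called, at 2.72 ± 0.36 (edgeR, adjusted p = 2.72e-04; 0.25% of genes). In CCR2pos cells it was 1.91 ± 0.60 and was not called without the block (edgeR, adjusted p = 0.9999) or with it, at 1.75 ± 0.36 (adjusted p = 0.462).

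The 4 mac-TFEB libraries of a fraction spread widely, by 5.29-fold in CCR2neg and 4.66-fold in CCR2pos cells between the lowest and the highest. Labels 1 and 2 had the highest Tfeb in both fractions. The same labels differed from labels 3 and 4 in Xist, the RNA of the inactive X chromosome. It lay between 0.0911 and 0.344 CPM in all libraries of TFEB-TG labels 1 and 2, and between 90.6 and 133 CPM in those of labels 3 and 4. In TFEB-wt, label 1 had no more than 0.416 CPM and labels 2 to 5 had 66.8 to 124 CPM, with Tfeb at 4.18 to 7.86 CPM in label 1 and 4.41 to 11.9 CPM in the others. Low Xist thus marked labels 1 and 2 of TFEB-TG but only label 1 of TFEB-wt, so the genotypes were not balanced for it. The part of Xist status in the Tfeb spread and in the differences between genotypes was not tested.

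The balance of the family was taken from CPM per kb of exon, the scale on which levels of different genes can be set side by side. For Tfeb the length of the chromosomal gene was used in every group. Reads from the cassette may need another length, so the shares in TFEB-TG groups hold only under this length. In TFEB-wt groups Tfeb made up 4.35 to 6.08% of the sum of the 4 genes, on average. Tfe3 held 32.1 to 44.1%, Mitf 32.9 to 39.8% and Tfec 17.0 to 23.5%. Tfeb was therefore the rarest family mRNA in cells without the cassette. In TFEB-TG Cre-neg cells its mean share was 13.0% in CCR2neg and 23.5% in CCR2pos cells. It was 54.4 ± 21.1% in CCR2neg and 49.5 ± 20.1% in CCR2pos mac-TFEB cells (SD, n = 4), with single libraries from 29.5 to 77.6%. The length of the longest transcript in place of the exon union gave mean Tfeb shares of 7.14 to 9.87% in TFEB-wt and 65.3 and 61.0% in mac-TFEB. In TFEB-TG Cre-neg cells this length moved the Tfeb share to 20.02% in CCR2neg and 33.7% in CCR2pos cells. Tfeb was then the largest of the 4 shares in CCR2pos Cre-neg cells, ahead of Tfe3 at 26.6%, whereas by the exon union Tfe3 led there with 30.2%.

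**Figure D2:**
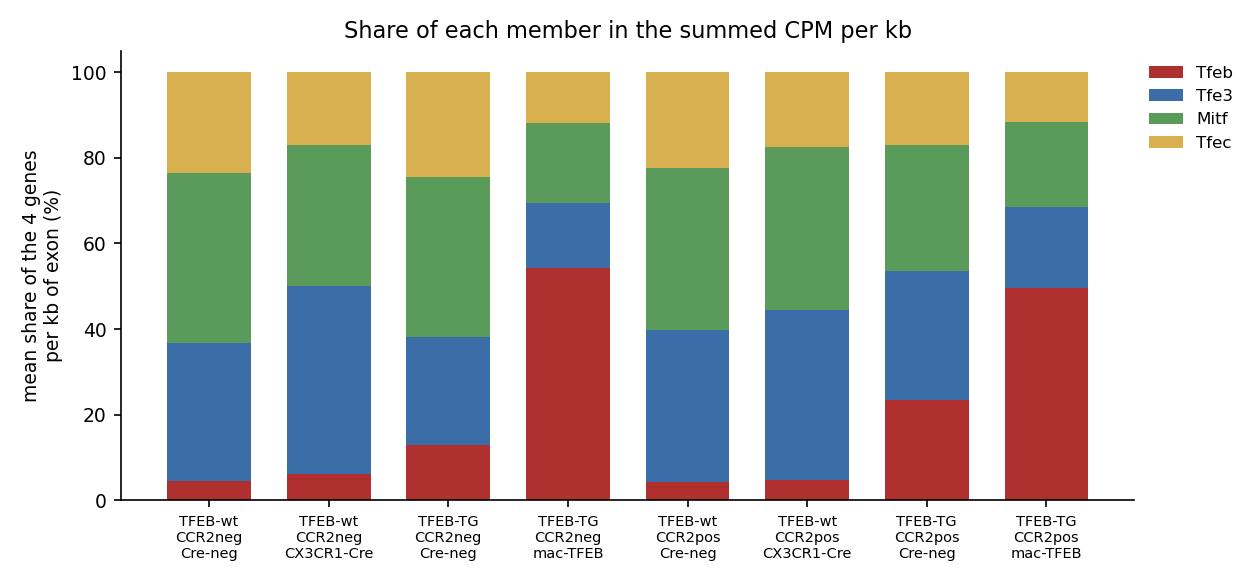
Mean share (%) of Tfeb, Tfe3, Mitf and Tfec in their summed CPM per kb of exon, by group, as stacked bars from 0 that add to 100. Tfeb holds 4.35 to 6.08% in the 4 TFEB-wt groups and 54.4 and 49.5% in the 2 mac-TFEB groups.

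Tfe3, which overlaps with Tfeb in function, was the most abundant or second most abundant member by CPM per kb in TFEB-wt cells. Its group means ran from 68.1 ± 7.9 CPM in TFEB-TG CCR2neg Cre-neg to 95.9 ± 19.3 CPM in TFEB-wt CCR2neg CX3CR1-Cre (SD), and each group overlapped its neighbour in the order of means. In CCR2neg cells the 4 mac-TFEB libraries had 77.9, 76.6, 69.3 and 67.0 CPM and the 5 CX3CR1-Cre libraries 87.4, 83.8, 130.3, 90.1 and 88.1 CPM. These libraries did not overlap, a pattern of 6.03% of all genes. The difference of -0.40 ± 0.12 (log2, SE) was not called (edgeR, adjusted p = 0.0922), whereas the fit with the label as a random effect called it, at -0.40 (limma-voom, adjusted p = 0.0376; 3.19% of genes), as did DESeq2 (-0.41, adjusted p = 0.0378). The same CX3CR1-Cre libraries were also compared with TFEB-wt cells labelled Cre-neg. Against the Cre-neg cells of TFEB-wt, which had 83.1, 56.5, 109.0, 70.8 and 66.6 CPM, CX3CR1-Cre was higher in 5 of 5 labels. That difference was 0.33 ± 0.11 and missed the threshold (edgeR, adjusted p = 0.127, with 2.6% of genes called). With the label as a block it was 0.34 ± 0.08 and called (edgeR, adjusted p = 0.00784, with 7.54% of genes called). Of 10 fits that each left out 1 library, only that without Cre-neg library 3 called it (0.45, edgeR, adjusted p = 0.0181). The other 9 did not. Over the 10 fits the difference ran from 0.20 to 0.45 and the adjusted p from 0.0181 to 0.497 (edgeR). Against their own Cre-neg cells, mac-TFEB cells differed in Tfe3 by 0.11 (95% interval -0.15 to 0.37) in CCR2neg and 0.03 (-0.22 to 0.29) in CCR2pos.

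Mitf, the family member known from melanocytes and osteoclasts, had group means from 47.4 ± 4.9 CPM in TFEB-wt CCR2neg CX3CR1-Cre to 68.1 ± 6.5 CPM in TFEB-TG CCR2neg Cre-neg. The mac-TFEB comparisons gave 0.27 (log2; 95% interval -0.07 to 0.61) in CCR2neg and -0.00447 (-0.34 to 0.34) in CCR2pos cells. Mitf differed most with Cre status in TFEB-wt CCR2neg cells, where CX3CR1-Cre libraries had 52.5, 51.9, 45.4, 46.6 and 40.8 CPM and Cre-neg libraries 54.2, 78.1, 66.7, 59.4 and 57.1 CPM. The groups did not overlap, as for 3.98% of genes. The difference of -0.41 ± 0.16 was not called (edgeR, adjusted p = 0.219, with 2.6% of genes called). With the label as a block it was called, at -0.39 ± 0.11 (edgeR, adjusted p = 0.0312), as were 7.54% of genes. In CCR2pos cells the same contrast gave -0.05 (95% interval -0.37 to 0.27).

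Tfec, the myeloid member, was lower with Cre in every TFEB-wt label. In TFEB-wt CCR2neg cells the CX3CR1-Cre libraries had 26.5, 23.1, 21.2, 19.8 and 19.9 CPM and the Cre-neg libraries 37.2, 37.6, 40.1, 28.3 and 26.9 CPM. No library of one group reached into the other, as for 3.98% of all genes, and the ratio within a label was 0.529 to 0.740. The difference of -0.61 ± 0.20 (log2, SE) was not called over all groups (edgeR, adjusted p = 0.111, with 2.6% of genes called). With the label as a block it was called (-0.60 ± 0.12, edgeR, adjusted p = 0.00168), as were 7.54% of genes. Fitted to only these libraries it was called too (-0.61, edgeR, adjusted p = 0.0407). In CCR2pos cells Tfec was lower with Cre in 5 of 5 labels too, at ratios of 0.497 to 0.853, with groups that did not overlap (1.45% of genes). There the difference of -0.43 ± 0.20 was not called (edgeR, adjusted p = 0.849; 0.00782% of genes called), nor with the block (adjusted p = 0.112; 1.05% of genes).

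The same Cre contrast within TFEB-TG gave Tfec ratios of 0.664 to 0.894 in CCR2neg cells, below 1 in 4 of 4 labels, and 0.683 to 1.19 in CCR2pos cells. The CCR2neg difference was -0.31 ± 0.22 (edgeR, adjusted p = 0.842) and -0.35 ± 0.14 with the block (adjusted p = 0.225). Against CX3CR1-Cre, mac-TFEB had 0.52 ± 0.21 more Tfec in CCR2neg cells (edgeR, adjusted p = 0.234). Since both Cre groups are set against their own Cre-neg cells here, the difference of these steps is the direct measure, and it was 0.30 (95% interval -0.31 to 0.90) for Tfec in CCR2neg cells. With the label as a block it was 0.26 (-0.12 to 0.63) in CCR2neg and 0.38 (0.00191 to 0.77) in CCR2pos cells. Neither was called with the block (edgeR, adjusted p = 0.789 and 0.9999). Cre status went with Cx3cr1, which averaged 436 CPM in TFEB-wt CCR2neg CX3CR1-Cre and 216 CPM in Cre-neg cells, and its part in the Tfe3, Mitf and Tfec differences was not tested. Osteoclast markers had a lower median sum with Cre in these TFEB-wt CCR2neg cells. The 5 of 7 that were listed (Oscar and Calcr were not) summed to 256 to 575 CPM (median 513) in the Cre-neg libraries. In the CX3CR1-Cre libraries they summed to 189 to 379 CPM (median 302). None of the 5 was called in this contrast by edgeR without the block, and 3, Acp5, Ctsk and Mmp9, were lower with it (4.13% of all genes were). In TFEB-wt CCR2pos cells the median sums were 217 CPM (Cre-neg) and 190 CPM (CX3CR1-Cre). For Cre-neg and mac-TFEB they were 324 and 314 CPM in TFEB-TG CCR2neg, and 226 and 229 CPM in TFEB-TG CCR2pos cells. The part of these markers in the Mitf and Tfec differences was not tested. CCR2neg CX3CR1-Cre library 4, with 51.3 CPM of the mast cell protease Tpsb2, had 46.6 CPM of Mitf and 19.8 CPM of Tfec, inside or at the low end of its group.

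**Figure D3:**
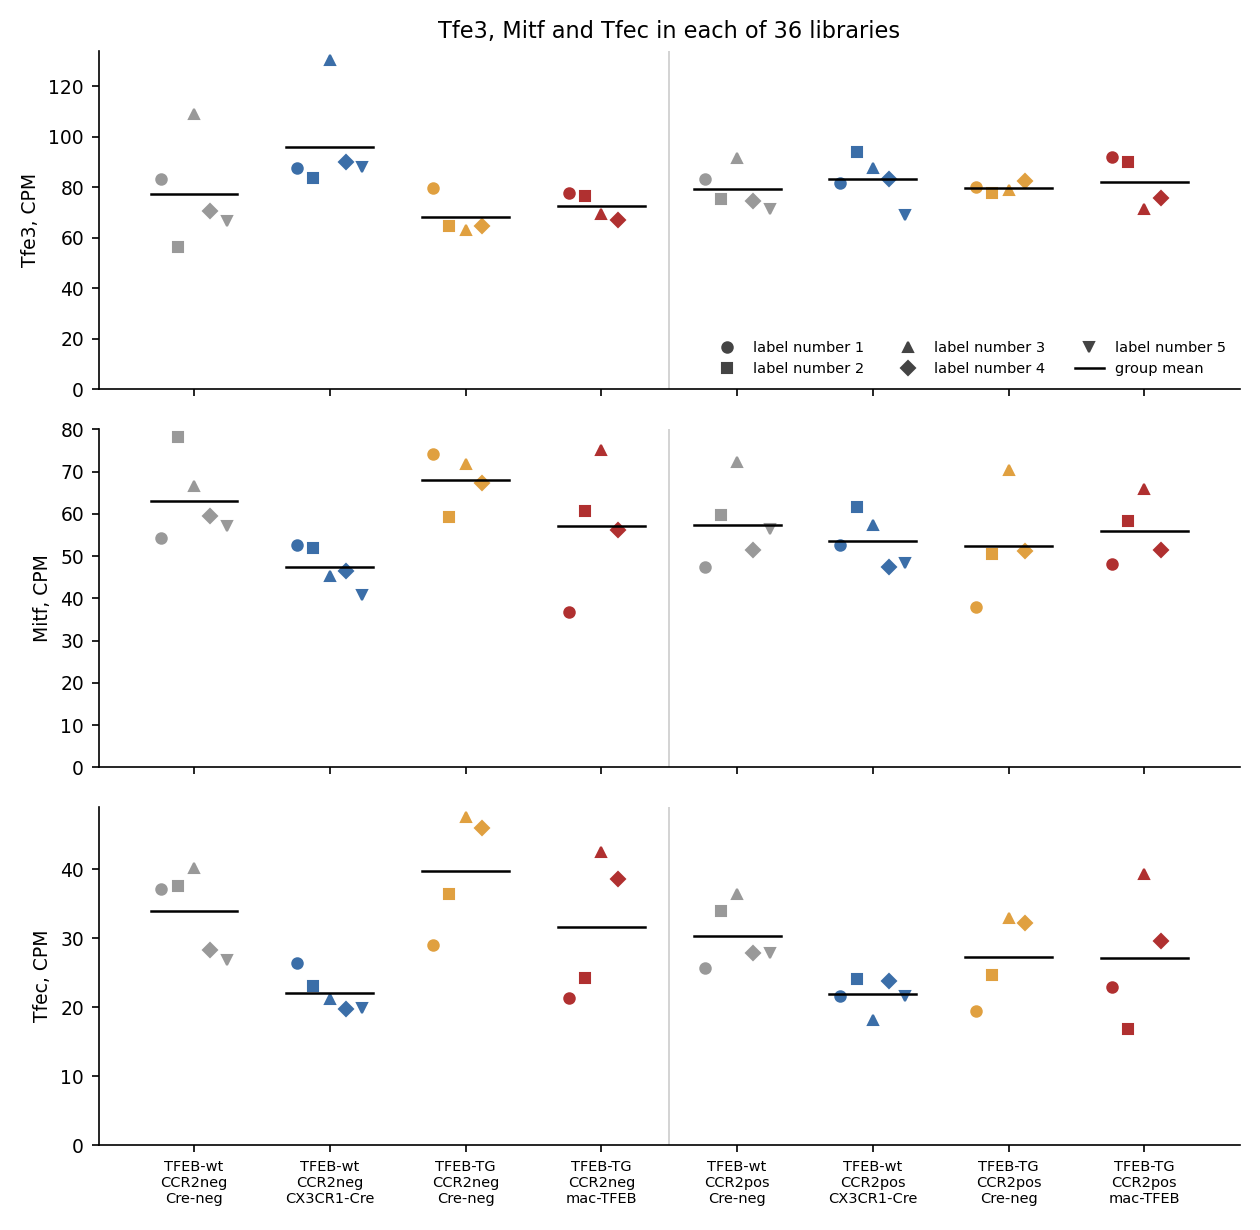
Tfe3, Mitf and Tfec in CPM (linear axes from 0) for each of 36 libraries by group; symbols are label numbers and horizontal lines group means. Tfec lies at 19.8 to 26.5 CPM in the TFEB-wt CCR2neg CX3CR1-Cre libraries and at 26.9 to 40.1 CPM in the matching Cre-neg libraries.

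The CCR2 sort was compared within each genotype and Cre status. In TFEB-wt CX3CR1-Cre, TFEB-wt Cre-neg and mac-TFEB cells none of the 4 was called between CCR2pos and CCR2neg, where 0.797%, 2.35% and 0.539% of genes were. In TFEB-TG Cre-neg cells none was called without the block either (3.26% of genes called). With the label as a block, which called 9.6% of all genes, Tfeb was higher in CCR2pos cells by 0.88 ± 0.25 (edgeR, adjusted p = 0.0247), higher in 4 of 4 labels. Tfe3 was higher by 0.30 ± 0.09 (edgeR with the block, adjusted p = 0.0317), at ratios of 1.001 to 1.27. Label 1 had no difference in Tfe3, at 79.9 CPM in both fractions. Tfec fell by 0.48 on the log2 scale (edgeR with the block, adjusted p = 0.0236), at ratios of 0.669 to 0.701 in 4 of 4 labels. CCR2neg library 1 of this group carried 539 CPM of summed cardiomyocyte markers, against at most 80.9 CPM in other libraries, and had the highest Tfeb (40.4 CPM) and the lowest Tfec (29.1 CPM) of its group. Without it and without the block, the CCR2pos minus CCR2neg difference was 1.27 for Tfeb, 0.35 for Tfe3 and -0.63 for Tfec (edgeR, adjusted p = 0.123, 0.162 and 0.118), each larger in size than with it.

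**Figure D4:**
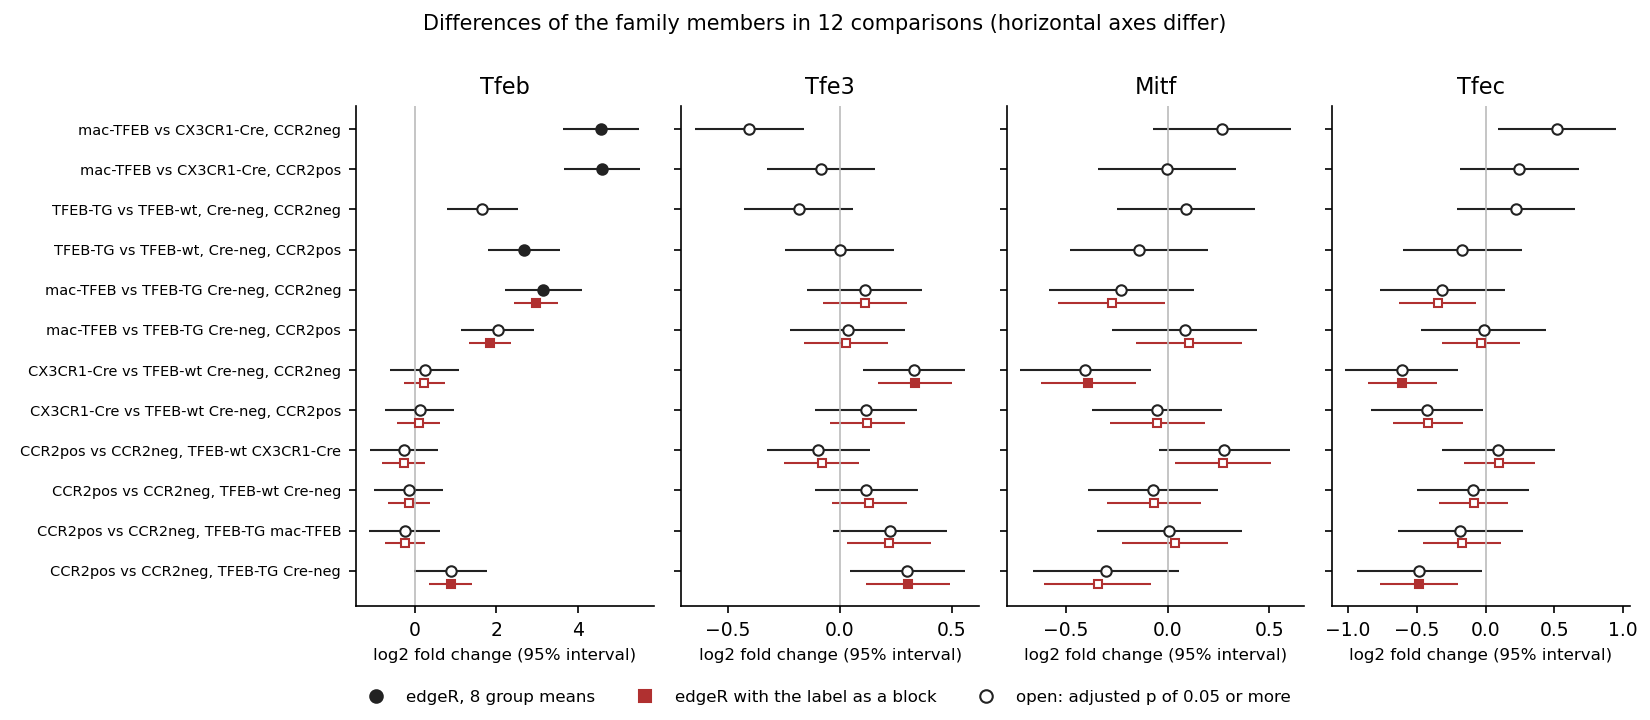
Log2 fold changes of the 4 genes in 12 comparisons with 95% intervals; circles are the edgeR fit of 8 group means, squares the fit with the label as a block (comparisons within a genotype only), and filled symbols have an adjusted p under 0.05. Horizontal axes differ between genes: Tfeb reaches 4.58, and no other member exceeds 0.61 in size.

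Across the 36 libraries Mitf and Tfec varied together, with a Pearson r of 0.67, and of 0.60 after group means were removed. Tfeb and Tfec had an r of -0.10, and of -0.67 after group means were removed. Tfeb and Tfe3 had -0.10 and 0.55 on the same measures. The libraries share labels and group spread, so these values describe the libraries only. In the order of labels 1 to 4, Tfec had 21.3, 24.3, 42.5 and 38.6 CPM in CCR2neg mac-TFEB and 23.0, 16.8, 39.3 and 29.6 CPM in CCR2pos mac-TFEB libraries. The Cre-neg libraries of the same labels had 29.1, 36.5, 47.6 and 46.0 CPM in CCR2neg and 19.4, 24.6, 33.0 and 32.2 CPM in CCR2pos cells. Label 3 was the highest for Tfec in all 4 groups and label 1 the lowest in 3 of them, with and without Cre. Labels 1 and 2, the ones low in Xist, lay below labels 3 and 4 for Tfec in all 4 groups. The part of Xist status in these values was not tested.

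By the fixed rule, the genes whose log2 CPM was most like that of a member over 36 libraries were taken from 7642 candidates. For Tfeb these were Gfi1b (r = 0.79), Rin3 (0.75), Entpd1 (0.72), Cd28 (0.72) and Itpr2 (0.69). After group means were removed, r was 0.59 for Rin3, 0.35 for Entpd1, 0.0074 for Cd28 and 0.33 for Itpr2. Gfi1b, a transcriptional repressor of blood cell development, averaged 13.9 ± 1.4 CPM in Cre-neg and 18.9 ± 3.5 CPM in mac-TFEB cells of the CCR2neg fraction (SD, n = 4 each). In the CCR2pos fraction it averaged 27.5 ± 5.7 CPM in Cre-neg and 26.6 ± 3.9 CPM in mac-TFEB cells, and in the 4 TFEB-wt groups 0.14 to 0.93 CPM. Its r with Tfeb was 0.86 over the 8 group means and -0.18 after group means were removed. For Tfe3 they were Tcof1 (0.88), Zfp36l1, Akna, Zfp385a and Stat3 (0.86). Mitf was most like Bhlhe40 (0.84), followed by Atp6v1e1, Rars2, Ctsl and Impa1 (0.71). Tfec was most like Hilpda (0.87), followed by Fabp5 (0.86), Galns, Clec4d and Lhfpl2 (0.83). With group means removed, r was 0.79 to 0.81 for the 5 genes of Tfe3, 0.65 to 0.84 for those of Mitf and 0.75 to 0.88 for those of Tfec.

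Genes that control TFEB's place in the cell were read in the same comparison, where 0.922% of all genes were higher and 0.453% lower in CCR2neg cells. These gene lists were chosen with earlier results of these data known. Of 17 measured genes of RAG GTPases, folliculin and mTORC1, 1 rose and none fell in the CCR2neg mac-TFEB comparison, and none was called in CCR2pos; the medians were 0.12 and 0.04, against 0.01 and -0.00415 over all genes. The gene called was Fnip2, a folliculin partner (1.02 ± 0.19 log2, SE; edgeR, adjusted p = 0.00329). Rragc, a RAG GTPase, gave 0.44 (edgeR, adjusted p = 0.257) and Flcn, folliculin, -0.34 (adjusted p = 0.205). Of 21 kinase, phosphatase, 14-3-3 and export genes none was called in either fraction (medians 0.03 and 0.05). Of 16 other E-box binding factors Bhlhe41, a repressor of the clock, rose in CCR2neg cells (0.73 ± 0.18; edgeR, adjusted p = 0.0305), and none was called in CCR2pos (medians -0.00951 and 0.13).

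Target genes of the family were read against the same shares of all genes, 0.922% higher and 0.453% lower in the CCR2neg mac-TFEB comparison. The target lists, too, were chosen with earlier results of these data known. Of 37 measured genes of the CLEAR network 3 rose there and none fell, while none was called in CCR2pos cells; the medians were 0.05 and -0.05. The 3 were Ctsd, a lysosomal aspartic protease (1.17 ± 0.17; edgeR, adjusted p = 1.32e-04), Lipa, the lysosomal acid lipase (0.58 ± 0.11; adjusted p = 0.00345), and Ctsb, a lysosomal cysteine protease (0.54 ± 0.12; adjusted p = 0.0142). Of 11 measured targets known from MITF 1 rose, Gpnmb, a lysosomal membrane glycoprotein (2.24 ± 0.43; edgeR, adjusted p = 0.00345). With the label as a random effect, where 1.87% of all genes were higher and 1.32% lower, Atp6v0d2, a proton pump subunit in the CLEAR list, was called as well (1.76 ± 0.39; limma-voom, adjusted p = 0.00828); it had missed the threshold at 1.84 (edgeR, adjusted p = 0.0617).

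Within TFEB-TG, mac-TFEB was compared with Cre-neg cells. The fit without the block called no gene of either list in either fraction (0.156% and 0.0156% of all genes called). With the label as a block none of the 37 CLEAR genes was called in either fraction. Of the 11 targets known from MITF, 2 were lower with the block in CCR2neg cells, where 1.23% of all genes were higher and 1.13% lower, and none was called in CCR2pos. They were Ednrb, the endothelin B receptor (-1.61 ± 0.19; edgeR with the block, adjusted p = 5.43e-06), and Hif1a, a hypoxia-inducible factor subunit (-0.70 ± 0.14; adjusted p = 0.00422). Ctsd gave 0.17 ± 0.12 (edgeR with the block, adjusted p = 0.608), Gpnmb 0.51 ± 0.25 (adjusted p = 0.377) and Fnip2 0.32 ± 0.11 (adjusted p = 0.132) in CCR2neg cells.

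Both lists held genes that fell with Cre in TFEB-wt CCR2neg cells, where no cassette was present. Without the block 0.969% of all genes were higher and 1.63% lower there. Ctsd and Lipa fell by 0.61 and 0.39 on the log2 scale (edgeR, adjusted p = 0.0342 and 0.0390), and Ednrb and Hif1a fell by 1.60 and 0.79 (adjusted p = 0.00560 and 0.0115). With the label as a block, 1 of 37 CLEAR genes was higher and 5 lower, and 1 of 11 targets known from MITF was higher and 7 lower, against 3.41% of all genes higher and 4.13% lower. Clcn7 (-0.31 ± 0.09, edgeR with the block, adjusted p = 0.0316) is in both lists and is counted in the 5 and in the 7. Gpnmb was among these 7 (-0.74 ± 0.22; edgeR with the block, adjusted p = 0.0388), and Fnip2 was lower too (-0.38 ± 0.10; adjusted p = 0.0123). These comparisons share the CX3CR1-Cre libraries with those of mac-TFEB. In the difference of differences (the mac-TFEB step minus the genotype step without Cre), the block called Ctsd (0.77 ± 0.16), Fnip2 (0.69 ± 0.15) and Atp6v0d2 (1.31 ± 0.26) in CCR2neg cells (edgeR, adjusted p = 0.0281, 0.0281 and 0.0246; 0.25% of all genes), and the fit without it called none.

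Ctsd had 8308, 10501, 14371 and 14447 CPM in CCR2neg mac-TFEB labels 1 to 4 and 7604, 9905, 13309 and 11773 CPM in the Cre-neg cells of the same labels. TFEB-wt CCR2neg libraries had 4586 to 6679 CPM with CX3CR1-Cre and 7035 to 10107 CPM as Cre-neg. The CX3CR1-Cre libraries were thus the low ones, and mac-TFEB exceeded its own Cre-neg cells in each label. Gpnmb had 1366, 2390, 5776 and 4602 CPM in mac-TFEB labels 1 to 4 and 937, 1671, 4285 and 3215 CPM in Cre-neg. Its ratio of mac-TFEB to Cre-neg within a label was 1.35 to 1.46. Fnip2 had 44.7, 37.1, 80.5 and 56.9 CPM in CCR2neg mac-TFEB labels 1 to 4 and 33.7, 35.1, 51.7 and 53.8 CPM in the Cre-neg cells of the same labels. In TFEB-wt CCR2neg cells it had 23.6 to 30.6 CPM with CX3CR1-Cre and 31.0 to 45.5 CPM as Cre-neg, so that for Fnip2, too, the CX3CR1-Cre libraries were the lowest of the 4 groups. Label 1, with the most Tfeb in CCR2neg mac-TFEB cells, had the least Ctsd and Gpnmb there, and also the least in CCR2neg Cre-neg cells.

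**Figure D5:**
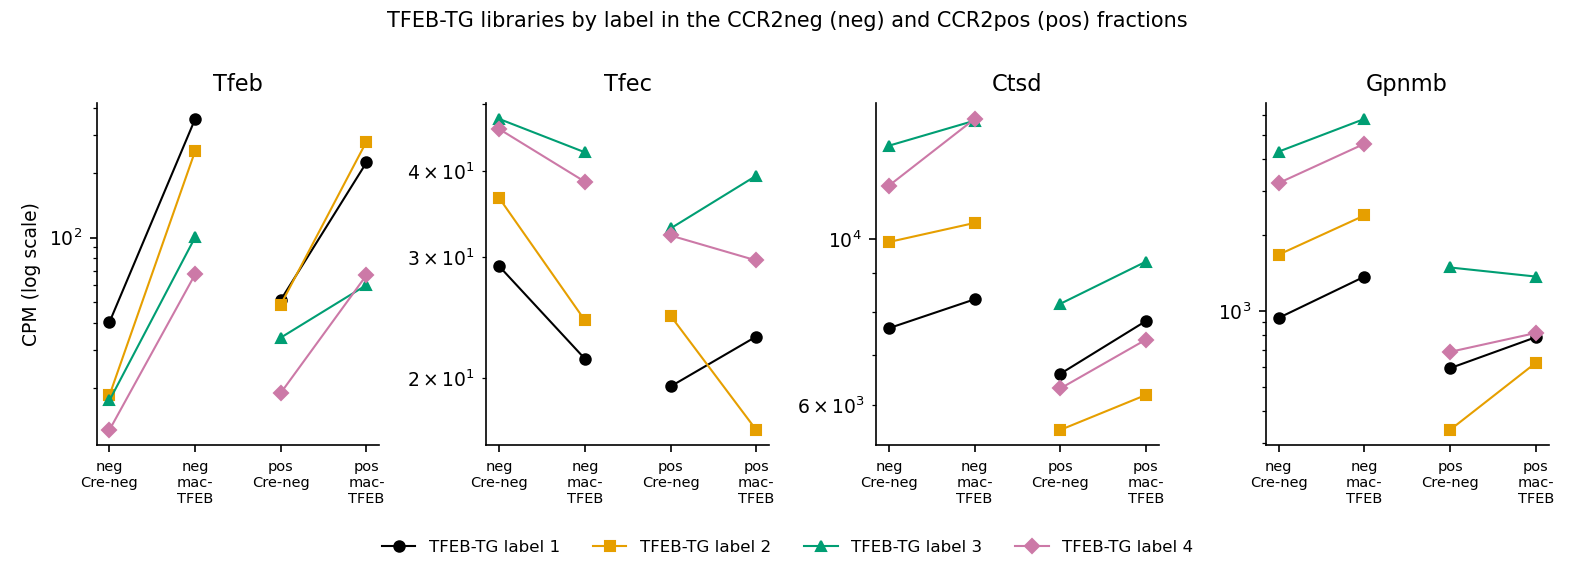
Tfeb, Tfec, Ctsd and Gpnmb in CPM on log axes in the TFEB-TG libraries; lines join the Cre-neg and mac-TFEB library of one label within the CCR2neg (neg) and CCR2pos (pos) fraction. Tfeb is higher in mac-TFEB for each label in both fractions, and Ctsd in CCR2neg mac-TFEB runs from 8308 CPM in label 1 to 14447 CPM in label 4.

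Among the listed genes that rose in the CCR2neg mac-TFEB comparison, Ctsd and Bhlhe41 hold the core E-box of the family in their promoter window, and the sites are printed to show it. RefSeq's GRCm38.p6 windows of 250 bases before to 50 after a start were searched on both strands for 4 motifs. The core is CACGTG. The second is CATGTG. The extended form, which contains the core, is TCACGTGA. The CLEAR consensus is the extended form with a G before it and a C after it, and so contains both. The core is in capitals in the lines that follow, each line is 5′ to 3′ on the minus strand, and the regions are chr7:142387908-142387937, chr7:142388055-142388077 and chr6:145865556-145865585.
Ctsd at -98 from the start: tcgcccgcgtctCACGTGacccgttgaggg
Ctsd at -245 from the start: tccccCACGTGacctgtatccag
Bhlhe41 at -153 from the start: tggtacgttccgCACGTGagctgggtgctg
CACGTG occurred in 7.15% of 32851 windows and for 11.8% of 9766 measured genes with a window, and in 14 of 28 CLEAR genes with one. CATGTG occurred in 14.2% of windows, for 10.6% of measured genes and in 6 of those 28. TCACGTGA occurred in 0.974% of windows, for 2.22% of measured genes and in 7 of the 28. The CLEAR consensus occurred in 0.326% of windows, for 0.809% of measured genes and in 1 of the 28. CLEAR genes are known for carrying such elements, so their counts describe the list and test nothing. The windows of Fnip2, Gpnmb and Lipa held none of the 4 motifs, nor did any of the 9 windows of Tfeb, Tfe3, Mitf and Tfec. No window was used for Ctsb.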

How the data were processed

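The deposited table holds unnormalised gene counts for all 36 libraries, and the rule of its filter was not found in the labels. Tools named in the submitters' processing notes are HTSeq, edgeR, DESeq, Bowtie2, TopHat and TopHat2 2.0.10, with the build GRCm38. Per the labels' protocols, the SMARTer Ultra Low kit, 12 PCR cycles and single reads of 50 bases without strand were used, so antisense reads cannot be told apart. Exons come from GENCODE vM21, to which 12783 of 12795 genes matched by identifier.

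CPM (by total count) was computed from the deposited counts. The test was edgeR 4.0.16's quasi-likelihood test (R 4.3.3, TMM, 1 fit of 8 group means over 36 libraries), with Benjamini-Hochberg adjustment over all genes and calls at an adjusted p under 0.05; edgeR's filter removed 0 genes. SE is the log2 fold change over the square root of F, and intervals are at 95%. On simulated data the test recovered 38 of 100 genes changed 2-fold and 97 of 100 changed 4-fold in the CCR2neg mac-TFEB comparison, among 12795 genes. The simulated counts had the common dispersion for every gene and no shared deviation of same-numbered libraries. The recovery therefore need not hold for the real counts.

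Same-numbered libraries of a genotype deviated together from their group means (every pair r of at least 0.140 across Cre status and 0.175 across fractions, except between the fractions of TFEB-wt Cre-neg, down to 0.0958), so the label (9 levels) was used as a block within genotypes; between genotypes limma-voom (limma 3.58.1) took it as a random effect (correlation 0.266). All 64 pairs of libraries within a group differed by more than sampling noise. Other alternatives were DESeq2 1.42.0, its size factors, filters, a fit to the compared libraries, leaving out each library and, added after seeing the data, leaving out 3 libraries and the block for the target lists. The members and gene lists were chosen with earlier results of these data known. Named genes are the members, the 5 genes most like each (Pearson r of log2 CPM, prior count 2, at least 10 CPM in a group) and, per list, those with the smallest p, of which part is named.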

Additional observations from a re-analysis of the deposited data

Results flagged for a closer look

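In 32 tests of a member within a group (Dixon's test at 95%), 2 libraries stood apart, where chance flags about 1 in 20. Tfe3 was 79.9 CPM in TFEB-TG CCR2neg Cre-neg library 1, the library with the most cardiomyocyte transcripts, against at most 64.8 CPM in the others of its group. Tfe3 was 130.3 CPM in TFEB-wt CCR2neg CX3CR1-Cre library 3, against at most 90.1 CPM in the others. The Tfeb step of mac-TFEB over CX3CR1-Cre exceeded the step between the genotypes without Cre by 2.72 on the log2 scale in CCR2neg cells (edgeR with the label as a block, adjusted p = 2.72e-04), and was not called without the block.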

How the results depend on the processing

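DESeq2 size factors in edgeR, no filter and a stricter filter (1 CPM in 9 libraries, 12120 genes) left every member's call and direction and every count within 1.5 times. DESeq2's test called 318 and 14 genes in the mac-TFEB comparison (CCR2neg, CCR2pos), 288 between genotypes without Cre in CCR2neg, 85 and 5 for mac-TFEB against Cre-neg, 11 for Cre in TFEB-wt CCR2pos, 210, 181 and 635 between fractions (CX3CR1-Cre, mac-TFEB, TFEB-TG Cre-neg) and 2 for the difference of differences in CCR2neg. It called Tfe3 (-0.41) in CCR2neg mac-TFEB, Tfeb between genotypes in CCR2neg (1.67), Tfeb in CCR2pos mac-TFEB against Cre-neg (2.02) and Tfeb in the difference of differences (2.89). Fitting only the compared libraries gave 71, 1, 6, 1, 165, 197, 25 and 65 genes in CCR2neg mac-TFEB, genotypes without Cre in CCR2neg, mac-TFEB against Cre-neg (both fractions) and fractions (CX3CR1-Cre, TFEB-wt Cre-neg, mac-TFEB, TFEB-TG Cre-neg), lost Tfeb in CCR2neg mac-TFEB against Cre-neg (3.14) and called Tfec for Cre in TFEB-wt CCR2neg (-0.61). The cause was not tested.

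The replicate block gave 408 genes in CCR2neg mac-TFEB and 113 between genotypes without Cre in CCR2neg (random label), and 301 and 26 for mac-TFEB against Cre-neg, 965 and 134 for Cre in TFEB-wt, 552, 808, 481 and 1228 between fractions and 32 for the CCR2neg difference of differences (fixed label). It called Tfe3 in CCR2neg mac-TFEB (-0.40), Tfeb in CCR2pos mac-TFEB against Cre-neg (1.85), Tfe3 (0.34), Mitf (-0.39) and Tfec (-0.60) for Cre in TFEB-wt CCR2neg, Tfeb (0.88), Tfe3 (0.30) and Tfec (-0.48) between the fractions of TFEB-TG Cre-neg and Tfeb in the difference of differences (2.72), lost Tfeb between genotypes in CCR2pos (2.57), and changed no other call of a member. In TFEB-wt Cre-neg, where the pairing rule failed, the block stands only as a count.

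Without 3 libraries rich in cardiomyocyte, mast cell or T cell transcripts, 424 genes were called between genotypes without Cre in CCR2neg and 36 between the mac-TFEB fractions. Uncalled values turned to -0.00808 (Tfe3) and 0.16 (Tfec) for CCR2pos mac-TFEB against Cre-neg, -0.00355 (Mitf) and 4.9e-04 (Tfec) between mac-TFEB fractions, and -0.38 (Tfeb) for CCR2pos minus CCR2neg.

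Leaving out 1 library moved counts to 59 to 260 in CCR2neg mac-TFEB, 6 to 440 between genotypes without Cre in CCR2neg, 7 to 32 and 1 to 2 for mac-TFEB against Cre-neg, 195 to 388 and 1 to 2 for Cre in TFEB-wt, and 46 to 106, 164 to 285, 36 to 80 and 249 to 608 between fractions (CX3CR1-Cre, TFEB-wt Cre-neg, mac-TFEB, TFEB-TG Cre-neg). Tfe3 for Cre in TFEB-wt CCR2neg ranged from 0.20 to 0.45. Uncalled values that crossed 0 were, for Mitf, -0.0896 to 0.0621 (CCR2pos mac-TFEB), -0.0503 to 0.26 (CCR2pos mac-TFEB against Cre-neg), -0.12 to 0.0346 (Cre in TFEB-wt CCR2pos), -0.16 to 0.0484 (fractions, TFEB-wt Cre-neg) and -0.16 to 0.17 (fractions, mac-TFEB); for Tfe3, -0.0420 to 0.0486 (genotypes, CCR2pos), -0.0218 to 0.10 (CCR2pos mac-TFEB against Cre-neg) and -0.14 to 0.0280 (fractions, CX3CR1-Cre); for Tfeb, -0.19 to 0.23 (Cre in TFEB-wt CCR2pos), -0.25 to 0.11 (fractions, TFEB-wt Cre-neg), -0.67 to 0.20 (fractions, mac-TFEB) and -0.41 to 0.46 (CCR2pos minus CCR2neg); and for Tfec, -0.24 to 0.16 (CCR2pos mac-TFEB against Cre-neg). Over all genes the common dispersion between libraries was 0.0943, and what limits the members' values was not tested.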
